A study of Mus musculus with 12 samples.

Results

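The genes described here encode heterotrimeric G proteins and the proteins that act on or through them: RGS proteins, adenylyl cyclases, cyclic nucleotide phosphodiesterases, protein kinase A subunits, G protein-coupled receptor kinases and arrestins. They were chosen by gene symbol among the protein-coding genes of the deposited table (symbols that begin with Gna, Gnb, Gng, Rgs, Adcy, Pde, Prkac, Prkar, Grk or Arrb and go on as the family numbering does). This gave 78 of the 18376 genes in the table, of which 13324 are protein coding. By family there were 12 G alpha, 5 G beta and 8 G gamma subunits, 13 RGS genes, 5 GRKs, 2 arrestins, 7 adenylyl cyclases (ADCY), 20 phosphodiesterases (PDE) and 6 subunits of protein kinase A (PKA). A few symbols fit the pattern without being an enzyme or regulator of the family: Pde4dip encodes a scaffold that binds a phosphodiesterase, Pde6d a chaperone of lipid-modified proteins, Pde12 an RNA-degrading enzyme of mitochondria, and Rgs7bp and Rgs9bp proteins that anchor RGS proteins at the membrane.

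RNA sequencing was done on bone marrow-derived macrophages (BMDMs), grown in vitro from bone marrow progenitor cells of adult wild-type C57BL6/J mice with 50 ng/ml M-CSF, the growth factor that makes these cells macrophages. There were 3 libraries in each of 4 groups, all collected after 6 days. CTRL cells received nothing further, Act cells received activin A at 50 ng/ml, FST cells received FST288 at 250 ng/ml, and Act+FST cells received both proteins at these doses. Activin A is a cytokine of the TGF-beta family. FST288 is 1 of the forms of follistatin, which captures activin A outside the cell, and served as the antagonist. The question was which genes activin A changes in BMDMs and whether FST288 prevents the change. The labels do not say whether the 3 libraries of a group came from separate animals, so p-values measure the spread between these libraries, which may be technical.

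Values are normalized counts, which are gene counts that the authors divided by 1 factor per library, and they summed to between 5643708 and 5955400 per library. Fold changes are on the scale of log2(normalized count + 1), with a standard error (SE), and understate the change of genes with low counts. Adjusted p-values are from limma with Benjamini-Hochberg adjustment over the 14318 genes tested, those with a mean of at least 5 over the 12 libraries. A gene was called when its adjusted p was at most 0.05. Macrophage markers were present in all 12 libraries, with Csf1r, the M-CSF receptor, at 3140 to 3578 normalized counts. Of the 7 macrophage markers, limma called 0 in Act versus CTRL, with 0 at an unadjusted p under 0.05 and 0 with the replicate number as a block.

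A G protein-coupled receptor switches on a G alpha subunit, which separates from its beta and gamma partners, and each part then acts on its own targets. The Gs class of alpha subunits stimulates adenylyl cyclases, which make cAMP, and the Gi class inhibits them; cAMP releases the catalytic subunits of PKA, which phosphorylate CREB and other proteins, until phosphodiesterases break cAMP down. RGS proteins speed up the switching off of G alpha, whereas GRKs and arrestins silence the receptor itself. In macrophages, a rise in cAMP is known to dampen the production of inflammatory cytokines.

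Of the 78 members, 65 passed the filter on the mean and were tested. The 13 others (Adcy4, Adcy5, Gna14, Gnat2, Gnaz, Gnb3, Gng8, Gng10, Pde3a, Pde6a, Pde6g, Rgs9 and Rgs9bp) lay between 0 and 10 normalized counts in every library. Levels of different genes were set side by side per kb of exon, with the length taken over all annotated exons of a gene. Where the cells use only some of these exons, this places a gene too low, so ranks and family shares are approximate. The length was 11186 bases for Gnas and 11175 for Arrb1, against 2845 for Arrb2. By this measure the highest member was Arrb2 (beta-arrestin 2) at a mean of 457 normalized counts per kb over the 12 libraries. It was followed by the G alpha subunits Gna12 (422) and Gnai2 (388), the receptor kinase Grk2 (351), the gamma subunit Gng2 (351), the PKA regulatory subunit Prkar1a (321) and the cyclase Adcy7 (318). The highest members of the other families were Gnb1 (276), Rgs10 (268) and Pde8a (173). The median of the 65 members tested was 77.6 normalized counts per kb, against 61.9 over the 14309 genes tested that have an exonic length. The plot of levels by family shows well expressed members above members near 0 in the G protein, RGS, cyclase and phosphodiesterase families. The lowest GRK (Grk4, 17.7), PKA subunit (Prkar1b, 23.7) and arrestin (Arrb1, 204) lay higher.

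**Figure D1:**
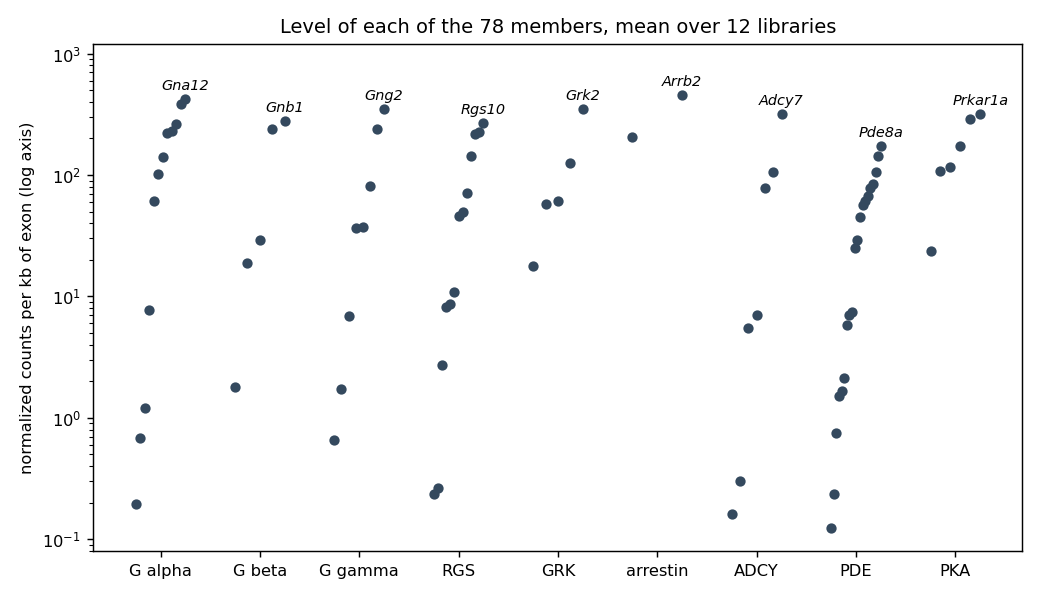
Level of each of the 78 members (normalized counts per kb of exon, mean over the 12 libraries, log axis) by family, with 1 point per gene. The highest member of each family is named and lies between 173 (Pde8a) and 457 (Arrb2). The lowest members of the G alpha, G gamma, RGS, ADCY and PDE families lie below 1.

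Activin A changed members of 8 of the 9 families, in both directions, and among the most abundant member of each family only Gng2 was called (Gng2 and Arrb2 with the replicate number as a block). In Act versus CTRL, 9 of 65 members rose and 9 fell, against 10.3% and 9.97% of all genes tested. With the block, 16 rose and 16 fell, against 16.3% and 15.2% of all genes tested. The family and list counts in this comparison stand beside the same shares. At least 2-fold changes were fewer: Adcy2 and Pde4d rose and Pde6b, Rgs7bp and Adcy3 fell, which is 2 and 3 of 65 against 2.58% and 3.09% of all genes tested. Ignoring sign, the median log2 fold change of the members was 0.16, and that of all genes tested 0.136. In Act versus Act+FST, which uses the same Act libraries, 16 members were higher in Act and 10 lower, against 11.1% and 10.2% of all genes tested (22 and 14 with the block, against 17.1% and 15.4%), and 5 and 3 of those called without the block differed at least 2-fold, against 2.72% and 3.11%. Values of RNA from whole cultures cannot tell fewer cells of a type from less RNA per cell.

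**Figure D2:**
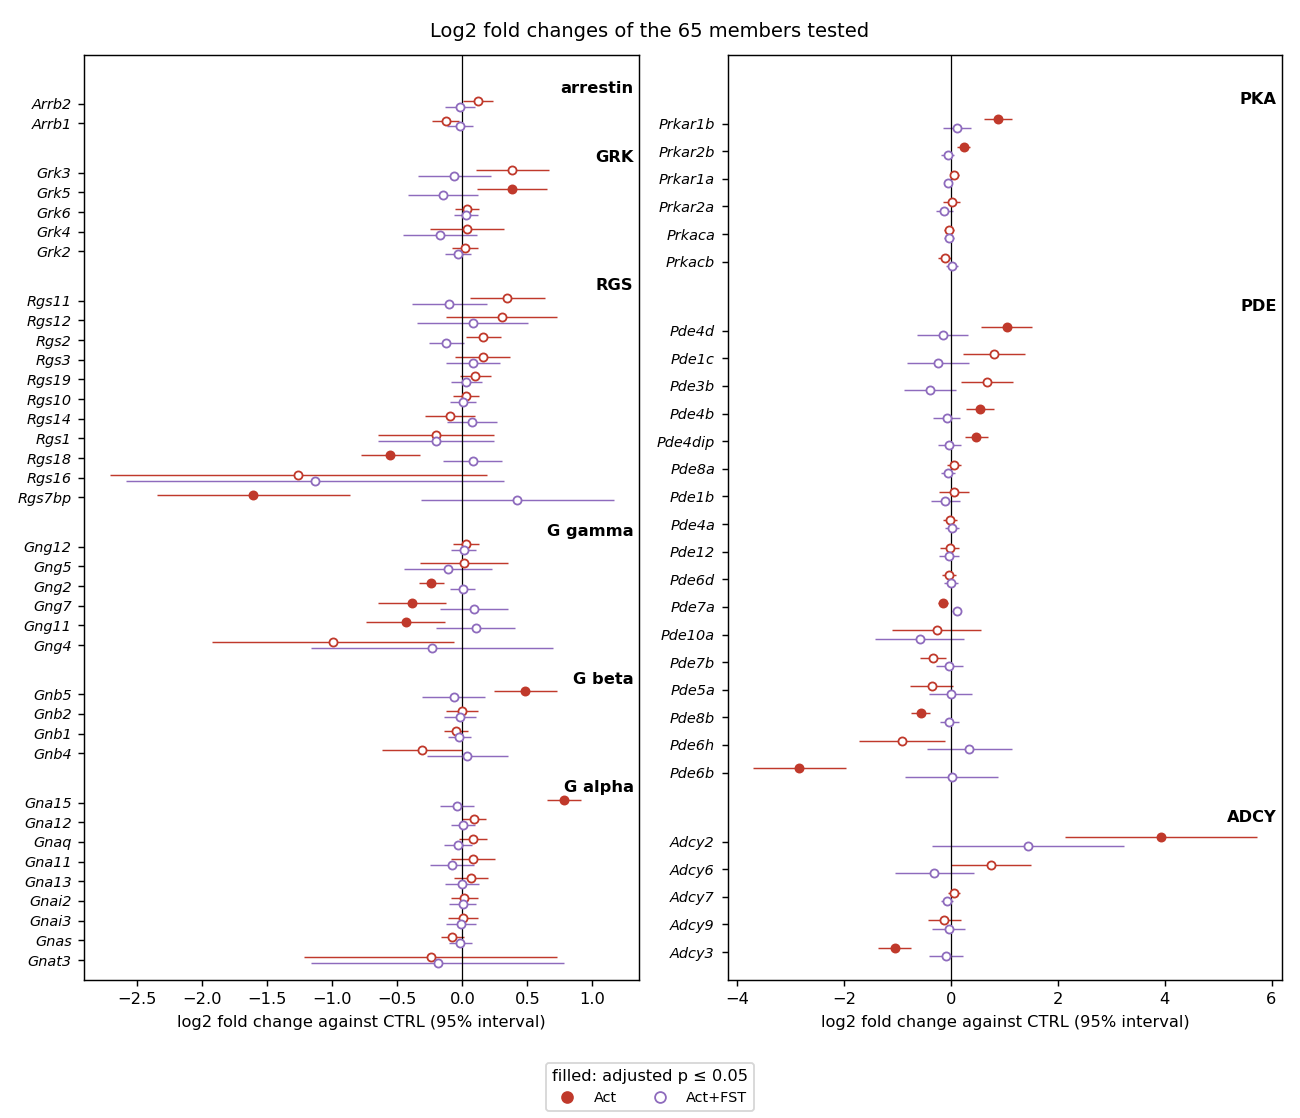
Log2 fold changes against CTRL of the 65 members tested, by family, in Act (red) and Act+FST (purple), with 95% confidence intervals, where filled points have an adjusted p of at most 0.05. The Act values run from -2.84 (Pde6b) to 3.94 (Adcy2) with 18 points filled, and no Act+FST point is filled; both series use the same 3 CTRL libraries.

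Sequence upstream of the RefSeq gene start was read for the members with an entry in the RefSeq promoter table of GRCm38.p6 (58 of 78, of which 50 entries began within 1000 bases of the annotated gene start and 43 of these belonged to members tested). Shown are the 250 bases before the RefSeq start for Gna15 and Prkar1b, the members that rose with the lowest adjusted p, and for Adcy2 and Adcy3, the cyclases that changed at least 2-fold. Capitals mark GTCTG or its other strand CAGAC, the short motif that SMAD proteins of the activin pathway bind, and TGACG or its other strand CGTCA, the core of the cAMP response element. For Adcy3 the RefSeq start lies 294 bases downstream of the annotated gene start, so that its window is inside the annotated gene. All 4 are written 5′ to 3′ on the strand of the gene.
Gna15, chr10:81524226-81524475, minus strand: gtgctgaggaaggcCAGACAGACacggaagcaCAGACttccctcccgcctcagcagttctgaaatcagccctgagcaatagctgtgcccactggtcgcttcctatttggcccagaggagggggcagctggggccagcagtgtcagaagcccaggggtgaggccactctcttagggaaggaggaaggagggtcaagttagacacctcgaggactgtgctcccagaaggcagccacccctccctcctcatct
Prkar1b, chr5:139150002-139150251, minus strand: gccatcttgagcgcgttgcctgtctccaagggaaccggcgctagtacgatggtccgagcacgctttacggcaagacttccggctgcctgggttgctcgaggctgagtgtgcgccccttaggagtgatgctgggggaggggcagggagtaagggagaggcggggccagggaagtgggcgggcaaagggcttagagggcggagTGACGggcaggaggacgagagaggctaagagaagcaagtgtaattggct
Adcy2, chr13:68999542-68999791, minus strand: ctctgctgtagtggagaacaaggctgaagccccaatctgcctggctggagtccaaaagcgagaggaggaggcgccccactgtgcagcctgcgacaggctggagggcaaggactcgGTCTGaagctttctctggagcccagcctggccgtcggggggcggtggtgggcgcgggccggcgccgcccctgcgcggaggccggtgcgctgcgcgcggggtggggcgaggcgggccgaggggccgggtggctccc
Adcy3, chr12:4133147-4133396, plus strand: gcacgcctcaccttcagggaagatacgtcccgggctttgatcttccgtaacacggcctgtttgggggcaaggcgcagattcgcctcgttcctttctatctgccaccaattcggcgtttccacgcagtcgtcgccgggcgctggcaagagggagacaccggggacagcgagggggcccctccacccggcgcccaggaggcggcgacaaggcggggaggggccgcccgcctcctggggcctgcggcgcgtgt

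Gna15 held 3 copies of GTCTG, Adcy2 held 1 and Prkar1b and Adcy3 held 0. Among the 43 members tested with a promoter entry near the gene start, GTCTG lay in 3 of 7 that rose in Act, in 1 of 6 that fell and in 10 of 30 that were not called, against 42.2% of all 32841 promoters in the table. TGACG lay in 1 of 7, 1 of 6 and 8 of 30, against 17.8% of all promoters, and the full element TGACGTCA, which contains it on both strands, in 0 of the 43, against 1.55%. The end of GTCTG can overlap the start of TGACG. Letters in a window are a description and not a measured binding site.

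Gna15, a G alpha subunit of the Gq class that couples to many receptors and is found in blood-forming cells, was the only G alpha subunit called. It was at 247, 261 and 269 normalized counts in CTRL, 439, 431 and 469 in Act, 254, 234 and 269 in Act+FST, and 236, 236 and 238 in FST. The 3 Act libraries stood apart from the 9 others, which lay within a narrow band. Gna15 was 1.72-fold higher in Act than in CTRL by the group means, a log2 fold change of 0.78 ± 0.06 (SE) with an adjusted p of 3.91e-06. It made up 6.71% ± 0.44 (SD, n = 3) of the summed G alpha counts per kb in CTRL and 10.7% ± 0.57 in Act.

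The other 8 G alpha subunits tested were not called in Act versus CTRL, with log2 fold changes from -0.24 (Gnat3, at 4 to 14 normalized counts) to 0.09 (Gna12). Gnas, which encodes the stimulatory subunit Gs, was at 1151 ± 5.29 (SD, n = 3) in CTRL and 1092 ± 34.8 in Act, and its log2 fold change of -0.08 had a 95% interval of -0.17 to 0.01. Gnai2, the most abundant inhibitory subunit, differed by 0.01 with an interval of -0.09 to 0.12. The summed G alpha counts per kb were 1759 to 1866 in CTRL, 1928 to 1988 in Act and 1776 to 1816 in Act+FST, so that the Act libraries lay above the others, with no test made of the sum.

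Among the beta subunits, Gnb5 rose and the abundant Gnb1 and Gnb2 did not change detectably. Gnb5 encodes the atypical beta subunit that pairs with RGS proteins of the R7 class instead of a gamma subunit. It was at 83, 90 and 78 normalized counts in CTRL against 112, 110 and 131 in Act, with 75 to 88 in the other 6 libraries. The log2 fold change was 0.49 ± 0.11 (SE), adjusted p = 0.00819. Gnb1 and Gnb2 had log2 fold changes of -0.05 and 0.00, both with intervals inside 0.14 on either side of 0. Gnb4 was at 253 ± 36.8 in CTRL and 203 ± 21.9 in Act (SD, n = 3), a log2 fold change of -0.31 that was called only with the replicate block (adjusted p 0.151 without it and 0.00169 with it).

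Of the 6 gamma subunits tested, 3 fell in Act and none rose (4 fell with the block), against 9.97% and 10.3% of all genes tested. Gng2, the most abundant gamma subunit of these cells, was at 1628, 1547 and 1617 normalized counts in CTRL, 1407, 1364 and 1293 in Act, and 1543 to 1679 in Act+FST and FST. All Act libraries lay below all others, although the change was small, at -0.24 ± 0.05 (SE) on the log2 scale (adjusted p = 0.00268). Gng7 was at 141 ± 8.74 in CTRL and 109 ± 18 in Act (log2 fold change -0.39, adjusted p = 0.0387), and Gng11 at 75 in each CTRL library and 58, 63 and 46 in Act (log2 fold change -0.44, adjusted p = 0.0457). Neither of the last calls was firm. Gng7 was no longer called when CTRL 1, CTRL 2, CTRL 3, Act 1 or Act 3 was left out (highest adjusted p 0.148), and Gng11 when any library other than Act 2, Act+FST 1 or Act+FST 2 was left out (highest adjusted p 0.172). Gng4, the gamma subunit with the largest log2 fold change, had 42, 21 and 21 normalized counts in CTRL against 14, 15 and 10 in Act. It ran from 16 to 35 in Act+FST and from 13 to 45 in FST, which reaches into the Act range. Its value of -0.99 was called only with the block (adjusted p 0.128 without it and 0.0176 with it). The summed gamma counts per kb were 745 to 784 in CTRL and 670 to 705 in Act, with no test made.

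Of the 11 RGS genes tested, Rgs18 and Rgs7bp fell and none rose. Rgs18, a regulator of Gi and Gq signalling known from platelets and myeloid cells, was at 347, 275 and 298 normalized counts in CTRL, 231, 189 and 205 in Act, 324, 291 and 356 in Act+FST, and 354, 301 and 327 in FST. The Act libraries were the 3 lowest, and the log2 fold change was -0.55 ± 0.10 (SE) with an adjusted p of 0.00244. Since Rgs18 is also a platelet gene, the megakaryocyte and platelet markers were read beside it: their sum was 329 to 423 normalized counts in CTRL and 349 to 442 in Act, and 0 of the 3 tested were called in Act versus CTRL by limma, with 0 at an unadjusted p under 0.05. With the block 1 of them, Itga2b, was called as lower (log2 fold change -0.67, adjusted p = 0.0148). The part of these markers in the fall of Rgs18 was not tested. Rgs7bp, the membrane anchor of R7 RGS proteins, was at 14, 17 and 21 normalized counts in CTRL, 5, 4 and 6 in Act, 16, 19 and 41 in Act+FST, and 28, 22 and 39 in FST. It was lower in every Act library than in every other library, by -1.61 ± 0.34 (SE) on the log2 scale (adjusted p = 0.00534), at counts where counting error is large.

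Among the more abundant RGS genes, Rgs10 and Rgs2 moved little. Rgs10 was at 457 ± 14 in CTRL and 466 ± 11.5 in Act (SD, n = 3). Rgs2, which acts mainly on Gq, was at 859, 819 and 791 normalized counts in CTRL against 910, 944 and 905 in Act, a log2 fold change of 0.16 that was not called in Act versus CTRL (adjusted p = 0.0925, with the block 0.00885, and without Act+FST 3 0.0365). It was called in Act versus Act+FST, at 0.28 ± 0.06 (SE), adjusted p = 0.00614. Rgs11, an R7 RGS protein, was at 186 ± 11.7 in CTRL, 236 ± 17.2 in Act and 176 ± 39.1 in Act+FST, and was likewise called in Act versus Act+FST (log2 fold change 0.45, adjusted p = 0.0291), but not without Act 2, Act 3, Act+FST 2 or Act+FST 3 (highest adjusted p 0.114). In Act versus CTRL its adjusted p was 0.0856, with the block 0.035, and 0.0185 without Act+FST 1. Rgs16 and Rgs1 spread widely between libraries of 1 group. Rgs16 was at 48, 29 and 13 normalized counts in CTRL against 9, 9 and 14 in Act, and its interval ran from -2.71 to 0.19 on the log2 scale. Rgs1 was at 473, 355 and 290 in CTRL and 377, 314 and 270 in Act (log2 fold change -0.20). Both were called in Act versus CTRL only with the block, at adjusted p = 0.045 and 0.0437. In Act+FST, Rgs16 was at 29, 12 and 4 and Rgs1 at 387, 287 and 287. Act versus Act+FST gave log2 fold changes of -0.13 and 0.00, which were not called.

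Grk5, a receptor kinase that also acts in the nucleus, rose from 382 ± 51.4 in CTRL to 496 ± 20.1 in Act (SD, n = 3), a log2 fold change of 0.38 ± 0.12 (SE) with an adjusted p of 0.0456. This call was lost when any 1 of 8 libraries was left out (CTRL 2, CTRL 3, the 3 Act libraries, Act+FST 2, FST 2 or FST 3; highest adjusted p 0.172). Grk3 was at 524, 530 and 464 normalized counts in CTRL against 649, 627 and 705 in Act, with the same log2 fold change of 0.38. Its adjusted p of 0.0537 missed the threshold, fell to 0.00877 with the block, and passed without Act+FST 2 or Act+FST 3 (lowest 0.00478). Grk2, the main GRK of these cells, was at 1579 ± 25.9 and 1602 ± 32, and the interval of its log2 fold change was -0.08 to 0.12. The arrestins had small log2 fold changes of opposite sign. Arrb1 was at 2320 ± 54 in CTRL and 2123 ± 117 in Act (log2 fold change -0.13, adjusted p = 0.0695), and Arrb2 at 1283 ± 28.8 and 1393 ± 42.3 (0.12, adjusted p = 0.141). Both were called with the block, at 0.0158 and 0.0275, and Arrb1 also without Act 1 (0.0438).

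**Figure D3:**
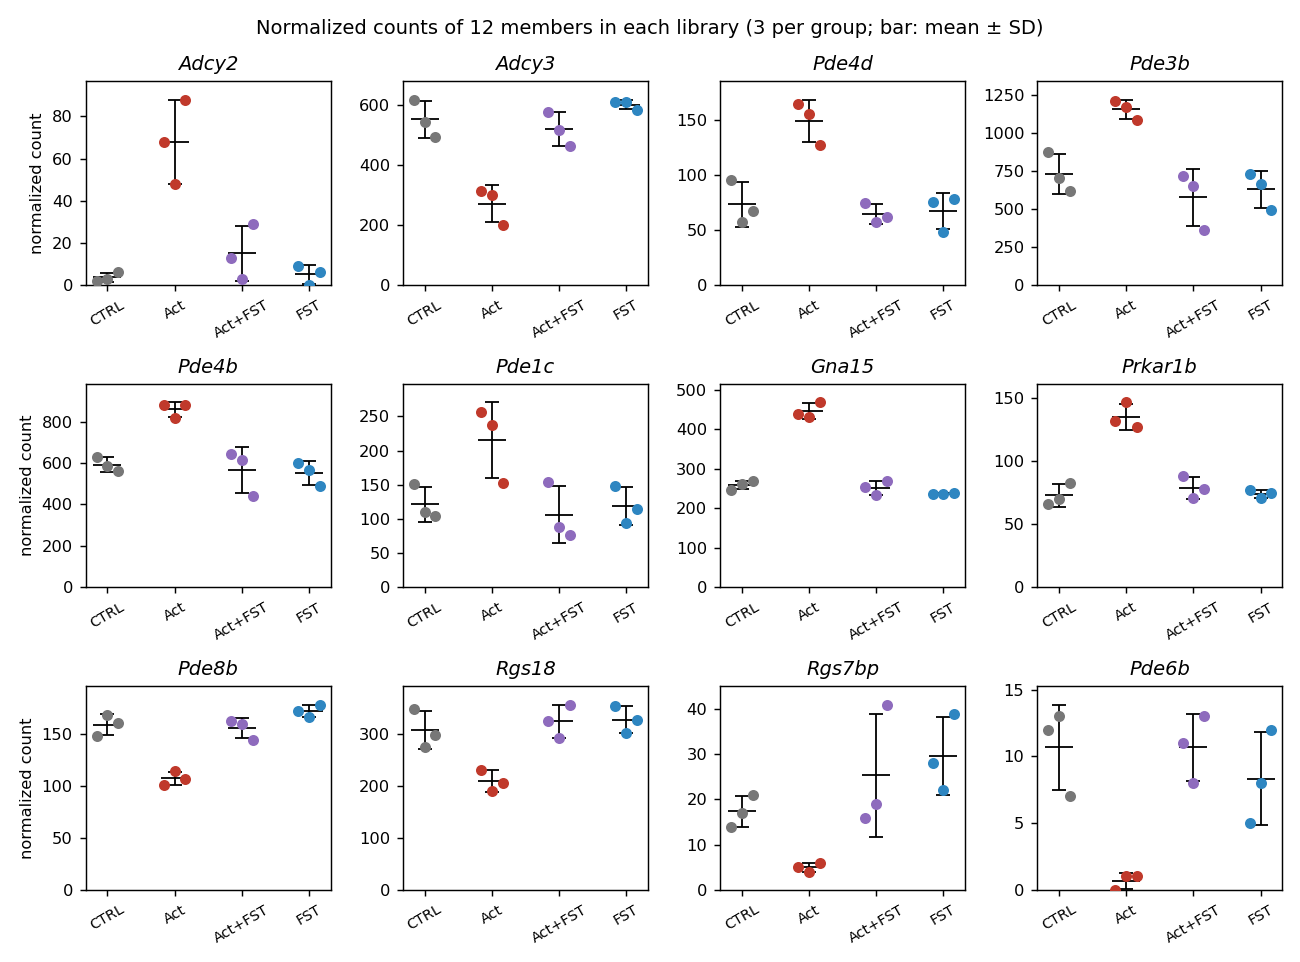
Normalized counts of 12 members in each library (points, 3 per group, in replicate order) with the group mean and SD (bars); each panel has its own linear axis from 0. Adcy2, Pde4d, Pde3b, Pde4b, Gna15 and Prkar1b are higher in every Act library than in any other library, Adcy3, Pde8b, Rgs18, Rgs7bp and Pde6b are lower, and Pde1c overlaps. How many of all genes separate in this way was not counted.

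The adenylyl cyclases changed in make-up. Adcy3 was at 617, 543 and 494 normalized counts in CTRL, 313, 298 and 199 in Act, 576, 515 and 463 in Act+FST, and 610, 609 and 582 in FST. Its highest Act library lay below the lowest of the 9 others, and Act differed from CTRL by a log2 fold change of -1.05 ± 0.14 (SE), adjusted p = 0.000264. Adcy3 shares 22.1% of its exonic bases with Cenpo on the opposite strand, and the strand setting of the counting is not given in the sources used here. Cenpo itself was at 293, 341 and 341 normalized counts in CTRL against 313, 317 and 335 in Act, a log2 fold change of -0.01.

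Adcy2, a cyclase that G beta gamma can stimulate, showed the largest rise of all members. It was at 2, 3 and 6 normalized counts in CTRL, 68, 48 and 88 in Act, 13, 3 and 29 in Act+FST, and 9, 0 and 6 in FST. The Act libraries were all above the rest, and the 3 Act+FST libraries ran from within the CTRL range to 29. Act versus CTRL gave a log2 fold change of 3.94 ± 0.83 (SE) (adjusted p = 0.00496), with a 95% interval of 2.14 to 5.73 that reflects the low counts. In Act versus Act+FST it was 2.49 ± 0.83, and its adjusted p of 0.0494 was above 0.05 in 9 of the 12 fits that left out 1 library (highest 0.184), all but those without Act+FST 3, FST 1 or FST 2. Adcy2 shares 4.49% of its exonic bases with Gm35161 on the opposite strand.

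Adcy7, the main cyclase of these cells, was at 2144 ± 110 in CTRL and 2230 ± 98.3 in Act (SD, n = 3), and the interval of its log2 fold change was -0.05 to 0.17. By summed counts per kb, Adcy7 made up 61.3% ± 1.87 of the cyclase family in CTRL and 66.4% ± 2.61 in Act, Adcy3 16.9% ± 1.13 and 8.63% ± 1.73, and Adcy2 0.17% ± 0.10 and 3.25% ± 1.02. The family sum was 489 to 568 per kb in CTRL and 479 to 535 in Act and overlapped. Adcy6, a cyclase that Gi and calcium inhibit, was at 50, 52 and 32 normalized counts in CTRL, 70, 82 and 71 in Act and 51, 38 and 22 in Act+FST. It was not called in Act versus CTRL (log2 fold change 0.75, adjusted p = 0.15, with the block 0.0209), and in Act versus Act+FST its log2 fold change was 1.06 with an adjusted p of 0.0428. The latter call was lost without CTRL 2, Act 1, Act 2, Act 3, Act+FST 2, Act+FST 3 or FST 1 (highest adjusted p 0.167).

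**Figure D4:**
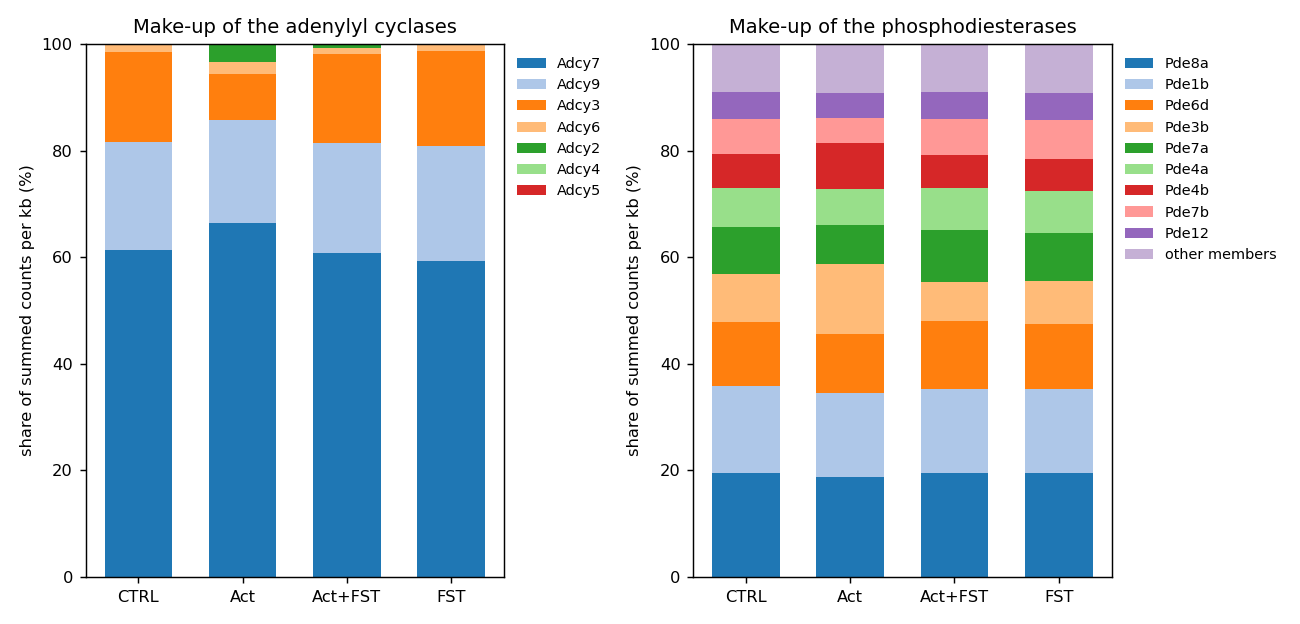
Share (%) of each member in the summed normalized counts per kb of exon of the adenylyl cyclases (left) and the phosphodiesterases (right), as group means of 3 libraries in stacked bars to 100%. Adcy3 takes 16.9% in CTRL and 8.63% in Act, and Pde3b 8.97% in CTRL and 13.2% in Act.

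Among the phosphodiesterases that degrade cAMP, the cAMP-specific Pde4d and Pde4b rose and the high-affinity enzymes Pde8b and Pde7a fell, while the paralogs Pde4a and Pde8a were not called. Pde7b, the paralog of Pde7a, was called as lower with the replicate block and not without it. Pde4d was at 96, 57 and 67 normalized counts in CTRL, 165, 156 and 128 in Act, 75, 57 and 62 in Act+FST, and 76, 48 and 78 in FST, a log2 fold change in Act versus CTRL of 1.05 ± 0.22 (SE), adjusted p = 0.00479. Pde4b, the subtype known for its role in the inflammatory response of monocytes, was at 630, 584 and 560 in CTRL, 879, 818 and 879 in Act and 644, 613 and 441 in Act+FST (log2 fold change 0.54 ± 0.12, adjusted p = 0.0068). Both were higher in every Act library than in any other. Pde4a, the third of the subfamily measured, had a log2 fold change of -0.02 and was not called, and Pde4dip, the scaffold, was at 456 ± 55 in CTRL and 632 ± 49.2 in Act (0.47 ± 0.10, adjusted p = 0.00539).

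Pde8b was at 148, 168 and 160 normalized counts in CTRL, 101, 114 and 106 in Act, 162, 159 and 144 in Act+FST, and 172, 166 and 178 in FST. Every Act library was lower than every other, with a log2 fold change of -0.56 ± 0.08 (SE) and an adjusted p of 0.000404. Pde8a, its paralog and the most abundant phosphodiesterase per kb, was at 701 ± 60.5 in CTRL and 730 ± 33 in Act and was not called. Pde7a fell less, from 605 ± 21 to 546 ± 10.2 (SD, n = 3), by 0.15 on the log2 scale (adjusted p = 0.0222), and its call was lost without CTRL 1, CTRL 3, Act 1 or Act 3 (highest adjusted p 0.0772). Pde7b was at 732 ± 87.8 and 579 ± 74 (log2 fold change -0.34), with an adjusted p of 0.0553 that fell to 1.26e-05 with the block, and to 0.0312 at the lowest when Act 1, Act+FST 1, Act+FST 3 or FST 1 was left out.

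Pde3b, a cAMP enzyme that cGMP inhibits, and Pde1c, a calcium-dependent enzyme for both nucleotides, were near the threshold in Act versus CTRL and passed it in Act versus Act+FST. Pde3b was at 873, 705 and 614 normalized counts in CTRL, 1208, 1171 and 1084 in Act, 715, 650 and 359 in Act+FST, and 732, 661 and 495 in FST. All Act libraries were above all others, and in each of the 4 groups the library numbered 3 was the lowest. Act versus CTRL gave a log2 fold change of 0.67 ± 0.22 (SE) (adjusted p = 0.0501, with the block 0.000401) and 1.07 in Act versus Act+FST (adjusted p = 0.00437). In Act versus CTRL, Pde3b passed without CTRL 1, Act+FST 1, Act+FST 3 or FST 3 (lowest adjusted p 0.00482). Pde1c was at 151, 110 and 104 in CTRL, 257, 237 and 152 in Act, and 154, 88 and 77 in Act+FST, so that Act 3 was level with the highest libraries of the other groups. Act versus CTRL gave a log2 fold change of 0.80 ± 0.27 (adjusted p = 0.0539, with the block 0.000628, and 0.0218 at the lowest when CTRL 1, Act 3, Act+FST 1 or Act+FST 3 was left out) and 1.04 in Act versus Act+FST (adjusted p = 0.0147, up to 0.0632 without Act 1, Act 2, Act+FST 2 or Act+FST 3).

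The phosphodiesterase subunits of photoreceptors were at the edge of detection. Pde6b was at 12, 13 and 7 normalized counts in CTRL, 0, 1 and 1 in Act, 11, 8 and 13 in Act+FST, and 5, 8 and 12 in FST. The 3 Act libraries summed to 2 against 32 in CTRL, a ratio of 0.0625 with an exact 95% interval of 0.0073 to 0.245 that covers counting error only, and the log2 fold change was -2.84 ± 0.40 (SE), adjusted p = 0.000334. Pde6h was at 8, 8 and 5 in CTRL, 5, 3 and 2 in Act, 10, 12 and 6 in Act+FST, and 5, 3 and 3 in FST. The FST libraries were thus in the Act range (FST versus CTRL -0.78 on the log2 scale, not called). For Act, the result depended on the comparison. Pde6h was not called in Act versus CTRL (log2 fold change -0.92, adjusted p = 0.103, with the block 0.0464). It was called in Act versus Act+FST (log2 fold change -1.27, adjusted p = 0.0272), and not without Act 2, Act 3, Act+FST 1 or Act+FST 2 (highest adjusted p 0.106). Over the 17 phosphodiesterase genes tested, 3 rose, 3 fell and 11 were not called in Act versus CTRL, and the family sum was 868 to 921 per kb in CTRL, 957 to 965 in Act and 825 to 887 in Act+FST.

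Of the 4 regulatory subunits of PKA, Prkar1b and Prkar2b rose and Prkar1a and Prkar2a were not called, nor were the 2 catalytic subunits. Prkar1b, a type I regulatory subunit best known from neurons, was at 66, 70 and 83 normalized counts in CTRL, 132, 147 and 127 in Act, 88, 71 and 78 in Act+FST, and 77, 71 and 75 in FST. The Act libraries stood well apart, with a log2 fold change of 0.89 ± 0.12 (SE) and an adjusted p of 0.00025. Prkar1b shares 8.95% of its exonic bases with Gm15672 on the same strand, which was at 5 to 14 normalized counts in the 12 libraries. Prkar2b, a type II regulatory subunit, rose from 385 ± 28.4 to 453 ± 15.6 (SD, n = 3), by 0.24 ± 0.06 on the log2 scale (adjusted p = 0.0107). Prkar1a, which accounts for most type I subunit RNA here, was at 1390 ± 32.7 and 1451 ± 13.6 and was not called (interval -0.02 to 0.14), so that Prkar1b was 1.86% ± 0.25 of the summed PKA counts per kb in CTRL and 3.34% ± 0.23 in Act. Prkar2a had a log2 fold change of 0.01, with an interval of -0.15 to 0.17. In Act versus Act+FST, Prkar1a was called at a log2 fold change of 0.12 (adjusted p = 0.0451), a call lost in 10 of the 12 fits that left out 1 library (all but those without CTRL 1 or Act+FST 2; highest adjusted p 0.176).

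No member was called in the groups with FST288 when these were compared with CTRL. By limma, 0 members were called in Act+FST versus CTRL and 0 in FST versus CTRL, as were 0 of the 14318 genes tested (0% of all genes in each direction). At an unadjusted p under 0.05 there was 1 member in Act+FST versus CTRL (Pde7a, log2 fold change 0.11) and 0 in FST versus CTRL, and with the replicate block 0 members were called in both. Over all genes tested, the block gave 40 higher and 40 lower in Act+FST versus CTRL (0.279% in each direction) and 0 in FST versus CTRL. Ignoring sign, the median log2 fold change of the 65 members was 0.0634 in Act+FST versus CTRL and 0.0474 in FST versus CTRL. Rgs16 had the largest negative value in Act+FST versus CTRL, -1.13 with an interval of -2.59 to 0.32. In Act versus CTRL it was at -1.26, which was not called without the block. Adcy2 had the largest positive value in Act+FST versus CTRL, 1.44 with an interval of -0.36 to 3.24. That interval is wide enough to hold no change as well as a rise. For the other members that changed at least 2-fold in Act versus CTRL the values in Act+FST versus CTRL were -0.09 for Adcy3, -0.15 for Pde4d, 0.02 for Pde6b and 0.42 for Rgs7bp; these comparisons share the CTRL libraries.

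The effect of activin A without FST288 (Act minus CTRL) was also compared with its effect in the presence of FST288 (Act+FST minus FST) in 1 contrast over the 4 groups. The difference was called as higher for 2 members and as lower for 5, against 3.99% and 2.75% of all genes tested, and for 13 and 10 with the replicate block, against 9.36% and 6.96%. Gna15 (difference 0.69 ± 0.09 SE on the log2 scale, adjusted p = 0.000734) and Prkar1b (0.80 ± 0.17, adjusted p = 0.0144) were the members more strongly raised without FST288. The difference was negative for Pde6b (-3.20), Pde6h (-2.05), Adcy3 (-0.83), Rgs18 (-0.54) and Pde7a (-0.23). Against CTRL, Pde6h was at 0.35 in Act+FST and -0.78 in FST, Pde6b at 0.02 and -0.35, and Pde7a at 0.11 and 0.02. By these values Pde6h, Pde6b and Pde7a were not lower in Act+FST than in FST, but that comparison was not tested on its own. Of these 7, Pde6b, Gna15 and Prkar1b were called in each fit that left out 1 library, and the other 4 were not. Adcy3 was called in the fits without CTRL 3, Act+FST 3 or any 1 Act library (highest adjusted p in the others 0.0628), Pde6h without CTRL 3, Act 1, Act+FST 3 or FST 1 (0.0845), Rgs18 without CTRL 2, Act 1 or Act+FST 2 (0.112), and Pde7a without CTRL 2, Act 2, Act+FST 3 or FST 2 (0.078).

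Other genes of the pathway were read from 7 lists. Of the 10 receptors that couple to Gs described here, 6 rose in Act versus CTRL and none fell (7 rose and 1 fell with the block). The adenosine receptor Adora2a was at 4, 7 and 1 normalized counts in CTRL against 12, 16 and 26 in Act (log2 fold change 2.07, adjusted p = 0.0224), a call lost without CTRL 3, Act 2 or Act 3 (highest adjusted p 0.0968). Vipr1, the receptor of vasoactive intestinal peptide, was at 129, 172 and 189 in CTRL, 444, 459 and 497 in Act and 134, 148 and 150 in Act+FST (log2 fold change 1.53, adjusted p = 3.99e-06). The prostaglandin receptors Ptger4 (284, 247 and 225 in CTRL, 493, 459 and 552 in Act), Ptgir (log2 fold change 0.76) and Ptger2 (0.39) and the proton sensor Gpr65 (0.36) rose as well. Adrb1, a receptor for noradrenaline, went the other way, at 14, 21 and 20 in CTRL, 12, 9 and 7 in Act and 27, 14 and 20 in Act+FST. In Act versus CTRL its log2 fold change of -0.91 had an adjusted p of 0.0525, with the block 0.0286 and at the lowest 0.0421 when CTRL 1, Act 1, Act+FST 1, Act+FST 2 or FST 2 was left out. It was called in Act versus Act+FST (-1.03, adjusted p = 0.0295), but not without Act 2, Act 3, Act+FST 1 or Act+FST 3 (highest adjusted p 0.11). The receptor called only with the block as higher was Hrh2 (log2 fold change 0.48, adjusted p 0.147 without it and 0.0415 with it).

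**Figure D5:**
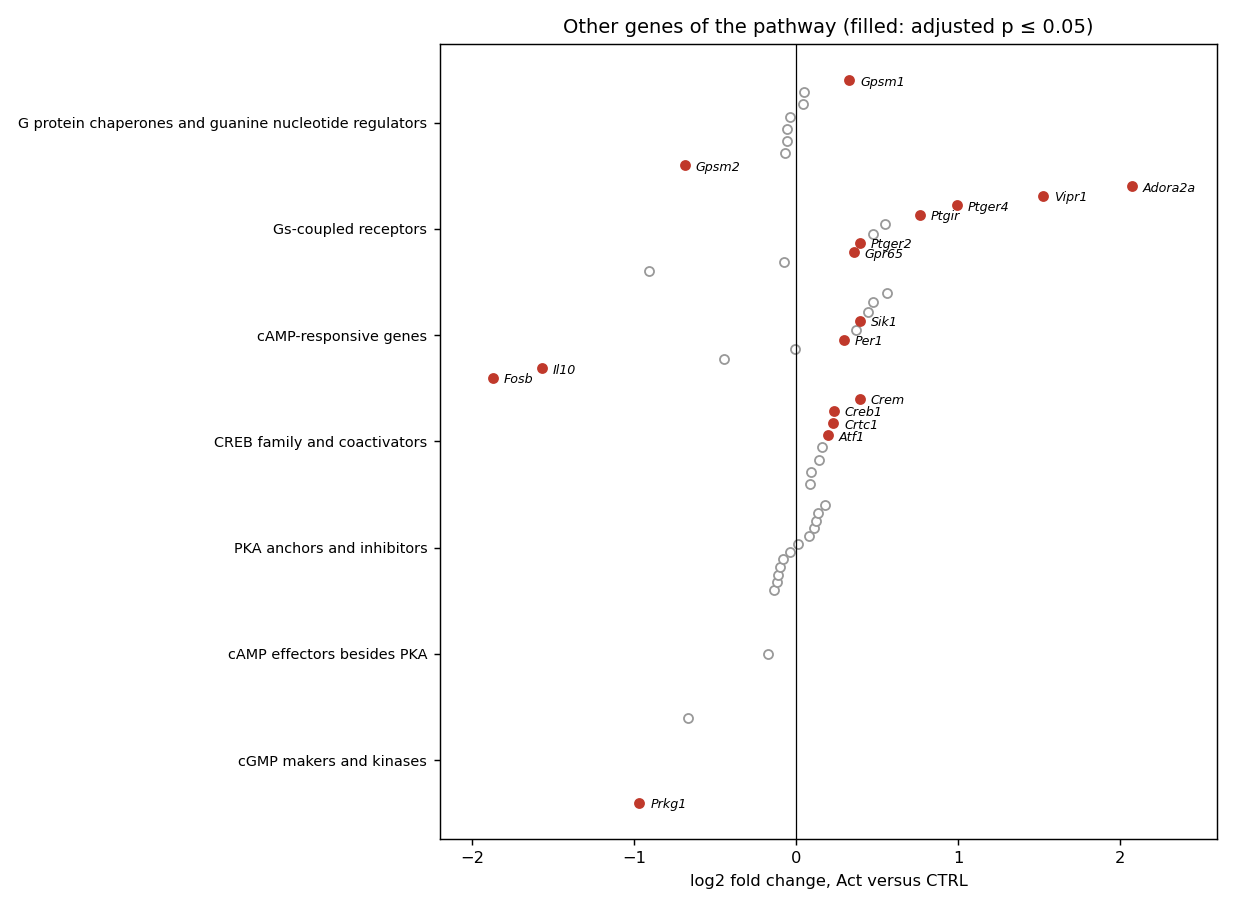
Log2 fold change in Act versus CTRL of other genes of the pathway, by list, with 1 point per gene described and filled, named points at an adjusted p of at most 0.05. Of 10 Gs-coupled receptors 6 are filled and lie to the right of 0, and 0 of 12 PKA anchors and inhibitors are filled.

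Downstream of PKA, 4 of the 8 genes of the CREB family and its coactivators rose by small amounts and none fell (6 rose with the block). Crem rose by 0.39, Creb1 by 0.23, Crtc1 by 0.23 and Atf1 by 0.20 on the log2 scale. Of these, Creb1 kept its call without any 1 library, while Crem lost it without CTRL 2, CTRL 3 or any 1 Act library (highest adjusted p 0.16), Crtc1 without CTRL 1, CTRL 2, Act 1 or Act 2 (0.109) and Atf1 without CTRL 1, CTRL 2, Act 1 or Act 3 (0.063). Of 10 genes known to respond to cAMP, 2 rose and 2 fell (4 and 3 with the block, which added Fos, Thbs1 and, as lower, Dusp1). Sik1 (log2 fold change 0.39) and Per1 (0.29) rose, and the transcription factor gene Fosb (-1.87) and the anti-inflammatory cytokine gene Il10 (-1.57) fell. Il10 was at 84, 89 and 76 normalized counts in CTRL, 28, 36 and 20 in Act, and 96, 98 and 85 in Act+FST. Fosb was at 48, 51 and 51 in CTRL, 22, 8 and 12 in Act, and 29, 35 and 9 in Act+FST, so that Act+FST lay between and its library 3 reached the Act range.

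The remaining lists held few calls. Of the 12 PKA anchors and inhibitors tested, 0 were called in Act versus CTRL by limma, with 0 at an unadjusted p under 0.05, and 2 rose with the block. Rapgef3, the cAMP-activated exchange factor Epac1 and the only gene tested of the effectors besides PKA, had a log2 fold change of -0.18 (adjusted p = 0.229). Of the 2 cGMP genes tested, the kinase gene Prkg1 fell from 148, 127 and 157 normalized counts to 107, 62 and 58 (log2 fold change -0.97, adjusted p = 0.00565). Among 8 G protein chaperones and guanine nucleotide regulators, Gpsm2 fell (log2 fold change -0.69) and Gpsm1 rose (0.33). The call of Gpsm1 was kept only in the fits without CTRL 2 or Act 2 (highest adjusted p in the others 0.17). These counts stand beside 10.3% and 9.97% of all genes tested, and beside 16.3% and 15.2% with the block.

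Markers of other cells that bone marrow cultures could hold were read in the same libraries. In Act versus CTRL, 2 of 5 neutrophil markers fell (Mpo and Elane, genes of neutrophil precursors), and the list summed to 380 to 598 normalized counts in CTRL and 317 to 454 in Act. Of the 2 monocyte markers described here Ccr2 rose, and their sum was 320 to 680 in CTRL and 964 to 1035 in Act. Of 3 endothelial markers Pecam1, which myeloid cells also express, rose, and the sum was 222 to 347 in CTRL and 256 to 367 in Act. Fibroblast and stromal markers summed to 3 to 55 in CTRL and 12 to 200 in Act, T cell markers to 0 in CTRL and at most 3 in Act, mast cell and basophil markers to at most 7 and 9, and 0 erythroid markers were in the table. Dendritic cell markers summed to 26 to 73 and 47 to 83 and B cell markers to 83 to 112 and 82 to 114, with 0 called by limma in both lists and 0 at an unadjusted p under 0.05 (with the block, the dendritic cell marker Flt3 rose). The block also called the endothelial marker Kdr (log2 fold change -0.55) as lower and the fibroblast marker Col1a2 (2.76) as higher. Of the calls without the block, Mpo held without any 1 library, Elane was lost without CTRL 2, Act 1 or Act 3 (highest adjusted p 0.101), Pecam1 without CTRL 2, CTRL 3 or any 1 Act library (0.14), and Ccr2 without these 5 or Act+FST 2 or FST 2 (0.173). The part of these markers in the results above was not tested.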

How the data were processed

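Per the labels, RNA was extracted with a column kit and libraries were made with a stranded mRNA kit; per the submitters' processing notes, the authors used Trimmomatic 0.39, STAR 2.7.9a on mm10 and featureCounts 2.0.2 (Subread), and called their own DEGs with DESeq2 1.30.0. The deposited values are a signal that is never negative: rounded whole numbers that come from gene counts after division by a single factor in each library. The formula of that scaling, the strand setting and any removal of duplicate reads are not given in the sources used here. Reads on several genes or positions were left out by the authors, which lowers genes that overlap others.

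The count test of the methods was not used because the values are normalized. They were tested with limma 3.58.1 (R 4.3.3; moderated variances with a mean trend, two-sided) on log2(normalized count + 1), for the 14318 of 18376 genes whose mean was at least 5, with all 12 libraries and the 4 groups fitted together. Benjamini-Hochberg adjustment covered all genes tested, and a call needed an adjusted p of at most 0.05. Exonic lengths and overlaps come from the GENCODE M21 annotation of GRCm38. Depth is known only as the sum of normalized counts, and counting error limits genes near a mean of 5 most. In simulated data for Act versus CTRL over 14281 genes, 72 of 100 genes changed 1.5-fold and 96 of 100 changed 3-fold were called, with 7 false calls. The changed genes were drawn only from genes with means well above the filter, and the simulated libraries shared no replicate effect. These rates therefore do not carry over to members near the filter.

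Groups and replicate numbers come from the labels. Libraries with the same number deviated from their group means together (mean r 0.312 over 18 pairs, range 0.157 to 0.481, against a mean of -0.155 for other pairs), so values with the number as a block are given in Act versus CTRL where they change a call of a named gene or a count, and in the other comparisons for the counts of members. The alternatives were pseudocounts of 0.5 and 5, no filter and a mean of at least 50, quantile normalization, rescaling by median ratios or to equal totals, only the groups compared, the block, a correction for shared start positions of reads, and leaving out each library. Members, gene lists, tests and alternatives were chosen with earlier results of these data known. Named were members changed at least 2-fold in Act versus CTRL or Act versus Act+FST, the 6 largest smaller rises and falls, the highest member of each family, the 3 largest changes not called at a mean of at least 50, and up to 4 genes per pathway list. Other genes named in the text (among them Prkar2b, Rgs1, Rgs2, Rgs11, Rgs16, Gnb4, Gng4, Pde7b, Arrb1, Gnas, Ptger2, Gpr65, Adrb1, Hrh2 and the markers) were chosen after their values were seen. No library was left out of the main results. A gene of the receptor list and a gene of the monocyte list are not reported here.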

Additional observations from a re-analysis of the deposited data

Results flagged for a closer look

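The effect of activin A without FST288 (Act minus CTRL) differed from its effect with FST288 (Act+FST minus FST), by limma at an adjusted p of at most 0.05, for 15 of the genes named in the report. For 6 of them the difference on the log2 scale was negative: Pde6b at -3.20, Pde6h at -2.05, Il10 at -1.55, Adcy3 at -0.831, Rgs18 at -0.536 and Pde7a at -0.233. For the other 9 it was positive: Crtc1 at 0.353, Per1 at 0.383, Sik1 at 0.478, Ptger2 at 0.551, Gna15 at 0.693, Ptger4 at 0.728, Prkar1b at 0.803, Vipr1 at 1.54 and Adora2a at 3.16. In all 15, the difference itself was tested, with 4 groups of 3 libraries, and Pde6b, Pde6h and Adora2a rest on fewer than 30 normalized counts in each library. Over all genes tested, the difference was called as higher for 3.99% and as lower for 2.75%. Many named genes were chosen for a change in comparisons that use the same Act libraries, so the count of 15 is not a share to set beside these.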

How the results depend on the processing

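No named gene with a call under the main or an alternative setting changed direction. With the replicate number as a block, the counts of members rose to 16 higher and 16 lower in Act versus CTRL and to 13 and 10 in the difference of activin effects, and no call of a named gene was lost. With only the groups compared, 15 members were higher in Act versus CTRL. With a mean of at least 50, the members changed at least 2-fold were 1 higher and 1 lower in Act versus CTRL and 3 and 0 in Act versus Act+FST, because genes under that mean were not tested. Quantile normalization gave 4 members higher in the difference of activin effects. Leaving out 1 library at a time gave 8 to 13 higher and 6 to 10 lower members in Act versus CTRL (1 to 3 and 2 to 3 at least 2-fold), 11 to 15 and 8 to 11 in Act versus Act+FST (2 to 5 and 2 to 4 at least 2-fold), and 2 to 7 and 1 to 5 in the difference of activin effects. Apart from the construction of the filter, the cause was not tested.

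Calls of named genes lost under other settings in Act versus CTRL were Grk5 (adjusted p 0.0623), Gng11 (0.0686) and Crtc1 (0.0528) with quantile normalization, Atf1 (0.0526) and Gpsm1 (0.0763) with equal totals, and Gng11 (0.0768), Gng7 (0.073) and Gpsm1 (0.0997) with only the groups compared. The call of Adcy2 in Act versus Act+FST was lost with a pseudocount of 0.5 (0.0856) and with no filter (0.0527), and that of Prkar1a with quantile normalization (0.149), equal totals (0.0828), no filter (0.0528) and only the groups compared (0.123). Not every lost call is listed here. Over all comparisons, calls of named genes were lost 11 times with only the groups compared and 8 times with quantile normalization. With equal totals and with no filter, 5 calls were lost in each. Members near the filter, such as Pde6b, Pde6h and Adcy2, are limited by their counts.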

Other observations

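Of the 10 genes known to respond to cAMP, 5 were higher in Act than in Act+FST (Sik1, Per1, Fos, Nr4a2 and Thbs1) and 1 was lower (Il10), against 11.1% and 10.2% of all genes tested. With the replicate number as a block 6 were higher, Nr4a3 (log2 fold change 0.96, with an adjusted p of 0.145 that fell to 0.0164 under the block) being added, and Nr4a1 (0.25), Dusp1 (-0.25) and Fosb (-0.67) were not called in either fit. Fos was at 628, 616 and 558 normalized counts in Act and 454, 372 and 185 in Act+FST (log2 fold change 0.93, adjusted p = 0.032), and Nr4a2, an orphan nuclear receptor that cAMP induces, at 56, 59 and 54 against 38, 22 and 21 (1.08, adjusted p = 0.0165). Thbs1, which encodes a protein of the extracellular matrix, was at 4088, 4006 and 3830 against 2805, 2708 and 1637 (0.78, adjusted p = 0.0083). In Fos, Nr4a2 and Thbs1 the library Act+FST 3 was the lowest of its group. Without Act+FST 3 the call of Fos was lost, as it was without any 1 Act library (highest adjusted p 0.0923), and Nr4a2 was lost without Act 2, Act+FST 2 or Act+FST 3 (highest 0.0648). In Act versus CTRL these genes were not called (log2 fold changes 0.47, 0.56 and 0.44), apart from Thbs1 without Act+FST 3 (adjusted p = 0.0174), and with the replicate number as a block Fos (0.0207) and Thbs1 (0.00398) were called.

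The anchoring protein gene Akap12 was at 11, 12 and 8 normalized counts in Act and 22, 27 and 33 in Act+FST, with 9, 14 and 11 in CTRL and 23, 16 and 21 in FST. It was thus lower in every library without FST288 than in every library with it. Its log2 fold change in Act versus Act+FST was -1.32 (adjusted p = 0.00288), and in Act versus CTRL it was -0.12 (adjusted p = 0.805). It was not called in Act+FST versus CTRL (1.20, adjusted p = 0.443) or FST versus CTRL (0.77, adjusted p = 1), where limma without the block called 0 genes in all (with the block its adjusted p was 0.0667 and 0.85).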
